A study of Homo sapiens with 6 samples.

Results

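VIM, ACTA2 and CLDN1 encode 3 proteins that set the shape and the contacts of a cell, namely the intermediate filament protein vimentin, smooth muscle alpha-actin and the tight junction protein claudin-1. They were taken by gene symbol from the deposited table of PC9-GR and PC9 cells, in which each symbol has 1 row, so that 3 of 1705 listed genes are described. PC9-GR is a gefitinib-resistant derivative of the human lung adenocarcinoma line PC9. It was selected with gefitinib, an inhibitor of the EGFR kinase, in steps from 0.5 to 10 µM and kept at 10 µM, and it was grown for 7 days without the drug before RNA extraction. PC9 is the parental line, labelled only as such, and both lines carry an EGFR exon 19 deletion and are labelled as epithelial cells. Each line gave 3 libraries of total RNA from independently repeated cultures, so the comparison is between 1 derived line and its parent, and resistance cannot be told apart from other differences between the lines.

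Vimentin forms the filaments that fill the cytoplasm of mesenchymal cells, whereas epithelial cells mainly build theirs from keratins. Smooth muscle alpha-actin assembles with myosin into contractile bundles in smooth muscle and in myofibroblasts. Claudin-1 spans the membrane and seals the space between neighbouring epithelial cells. In the lung and in its carcinomas, a shift from keratins and claudins towards vimentin is a textbook mark of epithelial-mesenchymal transition, and alpha-actin marks contractile mesenchymal cells.

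The DNA upstream of the genes is shown because VIM and ACTA2 were higher and CLDN1 was lower in PC9-GR. The stretches come from RefSeq on GRCh38.p14 and run 5′ to 3′ on the strand of the gene. Capitals mark the single match found to any of the motifs searched.
VIM (chr10:17227991-17228240, plus strand): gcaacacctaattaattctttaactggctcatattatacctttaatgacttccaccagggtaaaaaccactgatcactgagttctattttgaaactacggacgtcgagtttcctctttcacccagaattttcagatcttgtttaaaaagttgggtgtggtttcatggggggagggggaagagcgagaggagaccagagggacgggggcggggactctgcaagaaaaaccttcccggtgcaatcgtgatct
ACTA2 (chr10:88952774-88953023, minus strand): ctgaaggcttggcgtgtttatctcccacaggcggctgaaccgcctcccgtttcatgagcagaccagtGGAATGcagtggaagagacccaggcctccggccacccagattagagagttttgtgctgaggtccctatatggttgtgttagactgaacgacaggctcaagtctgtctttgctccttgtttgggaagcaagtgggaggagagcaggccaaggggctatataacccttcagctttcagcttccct
CLDN1 (chr3:190322476-190322696, minus strand): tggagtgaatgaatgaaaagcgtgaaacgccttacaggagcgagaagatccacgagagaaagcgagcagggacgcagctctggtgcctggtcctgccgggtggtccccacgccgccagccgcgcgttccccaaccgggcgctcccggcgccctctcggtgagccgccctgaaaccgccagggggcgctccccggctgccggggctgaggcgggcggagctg
The VIM stretch lies upstream of each of the 9 transcript starts that GENCODE 29 annotates for the gene, so other starts may have other promoters. The ACTA2 stretch lies before the more downstream of 2 RefSeq starts, within the span of the gene, and the window before the other start held none of the motifs. From the CLDN1 window, 29 bases that GENCODE 29 annotates as untranslated region were left out.

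Both strands of the 250 bases before each start were searched for 4 motifs. These were the E-box CACCTG, bound by the ZEB and Snail repressors, the AP-1 site TGANTCA and the TEAD site CATTCC. Partners of YAP bind the TEAD site. The last motif was the CArG box CCWWWWWWGG, bound by the serum response factor, where W stands for A or T. The ACTA2 window held a TEAD match on the opposite strand, from -183 to -178 relative to the start, and 11.9% of all 35116 promoter windows of the table held that motif. None of the motifs matched in the VIM or CLDN1 windows. Among all windows 17.5% held the E-box, 6.57% the AP-1 site and 1.16% the CArG box. The 250 bases differed in composition, with 46.0% G or C and 8 CG dinucleotides for VIM, 54.0% and 6 for ACTA2, and 68.8% and 28 for CLDN1. The median over all windows was 58.0% and 11. No match says only that these letters are not in these windows. The ACTA2 stretch holds CCCTATATGG and CCTTGTTTGG, which have a C or a G among the inner letters and were not counted as CArG matches.

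The deposited table is a selection made by the authors on these 6 libraries, and genes measured as unchanged were left out of it. In the authors' deposited table the smallest absolute log2 ratio is 1.0002 and the largest p-value is 0.04965. Values are FPKM, fragment counts divided by transcript length and by the mapped fragments of the library, and no depth can be given since the table has no counts. Lines were compared with limma's moderated two-sided test on log2(FPKM + 1), for the 1207 genes that reached 1 FPKM in 3 or more libraries, and a gene was called at a Benjamini-Hochberg adjusted p under 0.05. It called 584 genes higher (48.4%) and 619 lower (51.3%) in PC9-GR, so being called is the rule in this table and no sign of anything particular to a gene. The groups did not overlap for 823 higher genes (48.3% of 1705) and 794 lower genes (46.6%), and the q-value in the authors' deposited table was under 0.05 for 88.4% of the listed genes. The sum over listed genes was 16705 to 17114 FPKM in PC9-GR libraries and 28346 to 30541 FPKM in PC9 libraries. Each scaling between libraries used here was computed from the listed genes alone. With genes measured as unchanged left out, such a scaling cannot show which size of a difference is right. Because this is bulk RNA, fewer cells of a type and less RNA per cell cannot be told apart.

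VIM was among the most abundant listed transcripts in PC9-GR and was moderate in PC9. It measured 248.4, 286.4 and 275.6 FPKM in the PC9-GR libraries, against 21.4, 23.2 and 21.1 FPKM in the PC9 libraries. The lowest PC9-GR library lay far above the highest PC9 library, and the libraries of each line lay close together. The mean was 270.1 ± 19.6 FPKM in PC9-GR and 21.9 ± 1.12 FPKM in PC9 (SD, n = 3 each), a ratio of means of 12.3. The log2(FPKM + 1) difference was 3.57 ± 0.0976 (SE; limma adjusted p = 8.94e-09), with a 95% interval of 3.35 to 3.79. Scaling raised it above that interval, to 4.35 with equal library totals, 4.55 with median-ratio scaling and 4.24 with quantile normalization. By FPKM level, VIM held rank 4, 4 and 5 among the 1705 listed genes in the PC9-GR libraries, against ranks 213, 213 and 231 in the PC9 libraries. By the log2(FPKM + 1) difference it held rank 3 of the 1207 genes tested. That scale shrinks the change of genes that are low in PC9. As a ratio of means, genes such as COL6A3 (88.9), MMP9 (53.0) and IL32 (27.5) lay above VIM (12.3).

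CLDN1 moved the other way. Its level was 23.6, 31.8 and 22.7 FPKM in the PC9-GR libraries, against 91.4, 94.7 and 74.2 FPKM in the PC9 libraries. Each PC9-GR library was below each PC9 library, and the lines differed by more than the spread within either. The mean was 26.0 ± 5.02 FPKM in PC9-GR and 86.8 ± 11.03 FPKM in PC9 (SD, n = 3 each), and the ratio of PC9 to PC9-GR was 3.34. The log2(FPKM + 1) difference was -1.71 ± 0.148 (SE; limma adjusted p = 3.32e-06), with a 95% interval of -2.04 to -1.38. The transcript was reduced and not lost, as CLDN1 still ranked 143, 113 and 160 among the listed genes in the PC9-GR libraries, against 59, 65 and 82 in the PC9 libraries. The size of the decrease depended on the scaling, and no scaling on this selection of genes can show which size is right. The log2 difference was -0.92 with equal library totals and -0.72 with median-ratio scaling, and CLDN1 was called lower in both (limma adjusted p = 0.000236 and 0.000894).

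ACTA2 was low in both lines and higher in PC9-GR. It measured 1.39, 2.35 and 2.23 FPKM in the PC9-GR libraries, against 0.793, 0.947 and 0.807 FPKM in the PC9 libraries. The groups did not overlap, but PC9-GR replicate 1 lay nearer to the PC9 libraries than to the other two PC9-GR libraries. The mean was 1.99 ± 0.524 FPKM in PC9-GR and 0.849 ± 0.0851 FPKM in PC9 (SD, n = 3 each), a ratio of means of 2.35. The log2(FPKM + 1) difference was 0.68 ± 0.147 (SE; limma adjusted p = 0.00124), with a 95% interval of 0.35 to 1.01. The gene passed the filter only through the 3 PC9-GR libraries, as did 196 of the tested genes in all, so it had to differ to be tested. With a pseudocount of 0.1 in place of 1, which shrinks low values less, its log2 difference was 1.11 (limma adjusted p = 0.00176). The authors' deposited table gives ACTA2 a p-value of 0.0335 and a q-value of 0.0896, which is above 0.05, whereas the same table gives VIM and CLDN1 a q-value of 0.000285 each.

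The spread between replicates was not alike among the 3 genes. The coefficient of variation in PC9-GR was 7.24% for VIM, 26.3% for ACTA2 and 19.3% for CLDN1, against a median of 14.7% over the genes tested. In PC9 it was 5.11% for VIM, 10.0% for ACTA2 and 12.7% for CLDN1, against a median of 14.0%. The ACTA2 log2 difference was 0.83 without PC9-GR replicate 1, 0.59 without PC9-GR replicate 2 and 0.62 without PC9-GR replicate 3, and it was called in each. Scaling moved it as well, to 1.14 with equal library totals, 1.23 with median-ratio scaling and 0.42 with quantile normalization (limma adjusted p = 4.69e-05, 3e-05 and 0.0139).

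**Figure D1:**
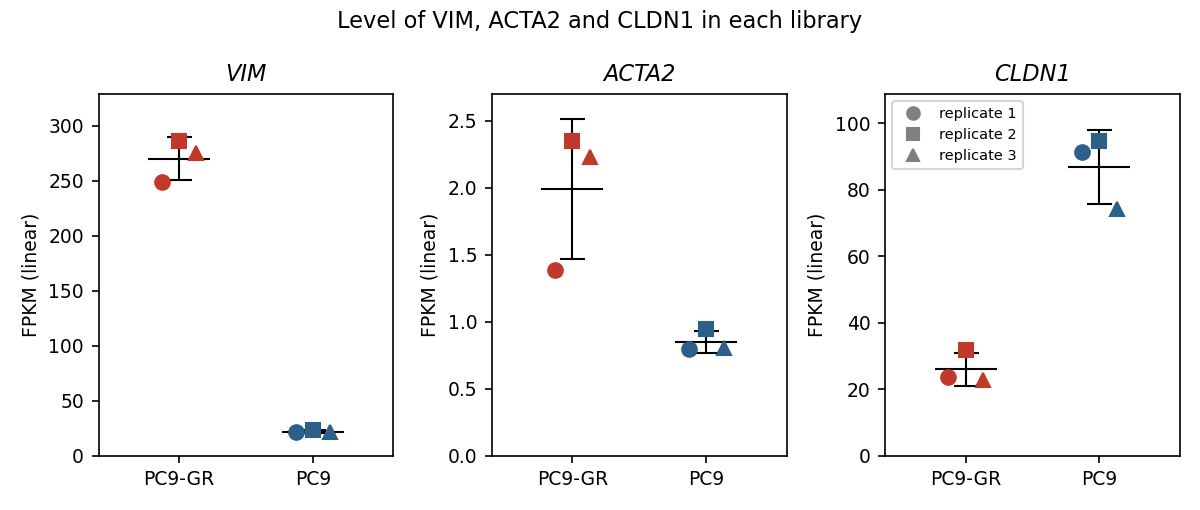
FPKM of VIM, ACTA2 and CLDN1 on linear axes that start at 0, with 1 point per library (circle, square and triangle for replicates 1, 2 and 3), a bar at the mean and whiskers of 1 SD (n = 3 per line). PC9-GR stands on the left and PC9 on the right of each panel, and the lines do not overlap for any of the 3 genes.

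Within a library, the ratio of VIM to CLDN1 does not depend on the scaling between libraries. It was 10.5, 9.01 and 12.2 in the PC9-GR libraries, against 0.234, 0.245 and 0.285 in the PC9 libraries. Per length, VIM therefore stood above CLDN1 in each PC9-GR library and below it in each PC9 library. On the log2 scale the ratio lay between 3.17 and 3.60 in PC9-GR and between -2.10 and -1.81 in PC9.

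The other intermediate filament genes of the table set the VIM level in context. Of 31 genes on the list of intermediate filament proteins and their linkers, 11 are in the table and 9 were tested. VIM and BFSP1, which forms the beaded filaments of the eye lens, were called higher, and 7 were called lower. Over all genes tested, 48.4% were called higher and 51.3% lower, so being called is the rule. The median log2 difference was -1.54 over the 9 tested, against -0.63 over all genes tested. The lower genes were the keratins KRT13, KRT5, KRT16, KRT17 and KRT6A and the neuronal filament genes NEFH and INA. KRT17, KRT6A, NEFH and INA are named beyond the naming rule, after their values were seen.

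KRT5, the basal cell keratin, measured 16.6, 12.7 and 20.7 FPKM in the PC9-GR libraries, against 68.5, 94.7 and 109.2 FPKM in the PC9 libraries. The groups did not overlap, and the mean was 16.6 ± 3.99 FPKM in PC9-GR and 90.8 ± 20.7 FPKM in PC9 (SD, n = 3 each; log2 difference -2.38, limma adjusted p = 2.82e-06). KRT13, a keratin of stratified mucosa, measured 0.265, 0.685 and 0.654 FPKM in PC9-GR, against 32.6, 33.2 and 27.7 FPKM in PC9, and it passed the filter only through the PC9 libraries. KRT16, a keratin of stressed and dividing epidermis, was at 7.11 ± 0.126 FPKM in PC9-GR and 33.6 ± 7.37 FPKM in PC9 (SD, n = 3 each; log2 difference -2.07, limma adjusted p = 1.40e-06). KRT6A measured 61.7, 55.3 and 67.2 FPKM in the PC9-GR libraries, against 122.0, 153.3 and 159.2 FPKM in the PC9 libraries, and it lost its call under median-ratio scaling (limma adjusted p = 0.154). BFSP1 was at 2.42 ± 0.203 FPKM in PC9-GR and 1.01 ± 0.227 FPKM in PC9 (SD, n = 3 each; log2 difference 0.77, limma adjusted p = 0.000259).

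Summed over the 5 listed keratins, the level was 88.5, 79.0 and 97.6 FPKM in the PC9-GR libraries, against 257.5, 336.7 and 343.9 FPKM in the PC9 libraries. VIM exceeded this sum 2.81, 3.63 and 2.82 times in the PC9-GR libraries, whereas in the PC9 libraries the sum exceeded VIM 12.1, 14.5 and 16.3 times. VIM made up 70.3%, 75.3% and 71.1% of the FPKM of the 11 listed intermediate filament genes in PC9-GR and 6.95%, 5.92% and 5.34% in PC9. It stood at rank 1 of the 11 in each PC9-GR library and at rank 5 in each PC9 library. Keratins outside the table were not analysed here, so these are shares of listed genes and not of all filaments.

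Shared sequence limits some of these values. Of the 50-base words of GENCODE 29 transcripts, KRT6A shared 32.1% with other genes on the same strand, most of them with KRT6C and KRT6B, and KRT16 shared 16.5%, most with its pseudogene KRT16P3. How reads were split among such copies is not known, which makes both values uncertain. VIM shared 0.173% and CLDN1 0 of its 3614 words.

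DES and GFAP, relatives of vimentin known from muscle and from astrocytes, were below the filter. DES measured 0.972, 3.60 and 2.66 FPKM in the PC9-GR libraries, against 0.271, 0.0704 and 0.157 FPKM in the PC9 libraries. It was highest in PC9-GR replicates 2 and 3. GFAP measured 1.90, 0.376 and 0.435 FPKM in the PC9-GR libraries, against 0.229, 0.228 and 0.177 FPKM in the PC9 libraries, and PC9-GR replicate 1 alone carried most of its mean. Without the filter, limma called DES higher and did not call GFAP.

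**Figure D2:**
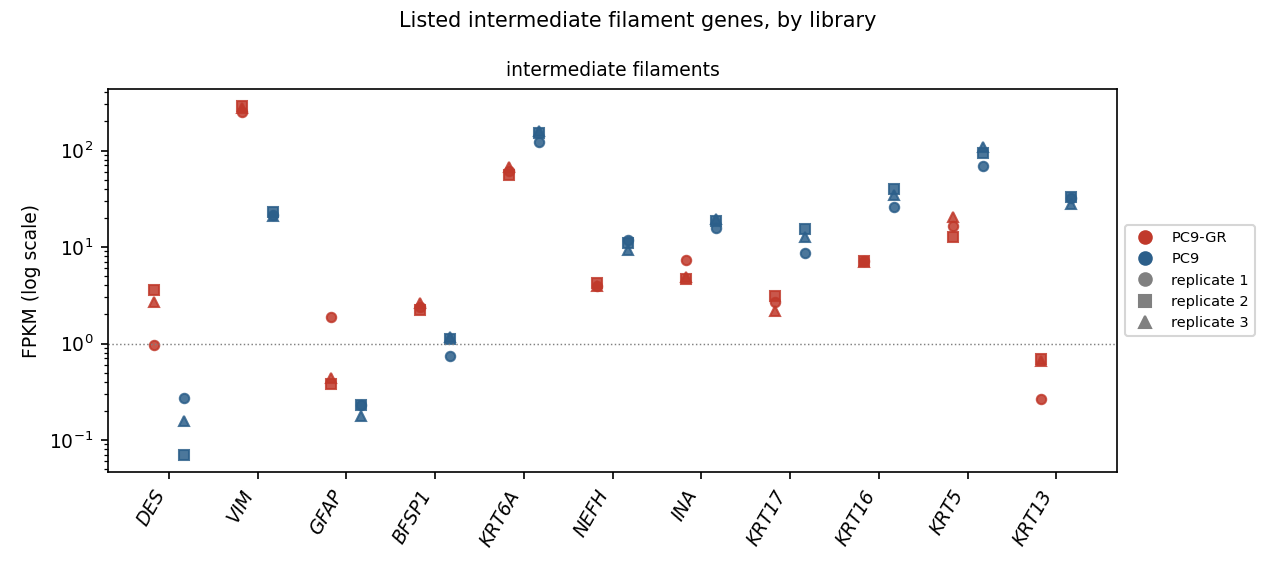
FPKM on a log axis of the 11 listed intermediate filament genes, with 1 point per library, PC9-GR left and PC9 right for each gene, ordered by the ratio of means. VIM is the top gene in PC9-GR and lies below KRT6A, KRT5, KRT16 and KRT13 in PC9, and the dotted line marks 1 FPKM.

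Of 37 genes on the list of actins and contractile proteins, 5 are in the table, and each was higher in PC9-GR by the ratio in the authors' deposited table. ACTA2, ACTC1, MYLK and TPM2 were tested and called higher. ACTA2, ACTC1 and MYLK passed the filter only through PC9-GR libraries, so they had to be higher to be tested, and the count says nothing of the list. TPM2 alone passed through both lines, and it is the 1 gene left with a filter at 5 FPKM.

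ACTC1, cardiac alpha-actin, measured 4.60, 5.45 and 4.10 FPKM in the PC9-GR libraries, against 0.626, 0.764 and 0.794 FPKM in the PC9 libraries. These values do not overlap (log2 difference 1.72 ± 0.137, SE; limma adjusted p = 1.97e-06). ACTC1 stood above ACTA2 by 3.31, 2.31 and 1.84 times in the PC9-GR libraries, and the ratio of ACTC1 to ACTA2 was 0.790, 0.807 and 0.985 in the PC9 libraries. The protein products of ACTA2 and ACTC1 are near identical, but on the same strand ACTA2 shared 0.875% of its 50-base words with transcripts of other genes and ACTC1 shared 0.215%.

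TPM2, a tropomyosin that lies along actin filaments, was at 100.5 ± 3.46 FPKM in PC9-GR and 37.3 ± 0.725 FPKM in PC9 (SD, n = 3 each; log2 difference 1.41, limma adjusted p = 5.82e-07). It was the most abundant of the 5 in each library. MYLK, the kinase that phosphorylates the myosin light chain, was at 3.50 ± 0.395 FPKM in PC9-GR and 0.403 ± 0.396 FPKM in PC9 (SD, n = 3 each; log2 difference 1.71, limma adjusted p = 1.40e-05). CNN1, calponin of smooth muscle, did not reach the filter and measured 0.902, 2.19 and 2.01 FPKM in the PC9-GR libraries, against 0.0716, 0.397 and 0.298 FPKM in the PC9 libraries. PC9-GR replicate 1 was the lowest of its line for ACTA2, CNN1, DES, MYLK and TPM2 but not for ACTC1. Without this library the count of contractile genes called higher was still 4.

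The junction genes of the table did not move one way. Of 41 genes on the list of tight junction and apical polarity proteins, 5 are in the table and 4 were tested. CLDN1 is the only claudin among them. CLDN1 and PARD6A were called lower and ILDR2 and CGNL1 higher, while 51.3% of all genes tested were called lower and 48.4% higher. The median log2 difference was -0.18 over the 4 tested, against -0.63 over all genes tested. ILDR2 and CGNL1 passed the filter only through PC9-GR libraries and PARD6A only through PC9 libraries, so each had to differ to be tested. With a filter on the mean over the 6 libraries, a setting chosen after the data were seen, 1 was called lower and 1 higher, and with a filter at 5 FPKM CLDN1 was the only gene left.

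PARD6A, a scaffold of the apical polarity complex, was at 0.170 ± 0.0905 FPKM in PC9-GR and 1.41 ± 0.272 FPKM in PC9 (SD, n = 3 each; log2 difference -1.04, limma adjusted p = 1.30e-05). ILDR2, a relative of the proteins of tricellular tight junctions, measured 1.68, 2.08 and 1.95 FPKM in the PC9-GR libraries, against 0.0625, 0.0809 and 0.0294 FPKM in the PC9 libraries (log2 difference 1.45, limma adjusted p = 7.59e-07). CGNL1, paracingulin, which links junctions to actin, was at 1.69 ± 0.0879 FPKM in PC9-GR and 0.678 ± 0.136 FPKM in PC9 (SD, n = 3 each; log2 difference 0.68, limma adjusted p = 0.000165). JAM2, a junctional adhesion molecule, was below the filter, and its libraries overlapped at 0.115, 0.653 and 0.487 FPKM in PC9-GR, against 0.0437, 0.196 and 0.0707 FPKM in PC9. At 26.0 FPKM in PC9-GR and 86.8 FPKM in PC9, CLDN1 was far above the other listed junction genes in both lines.

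**Figure D3:**
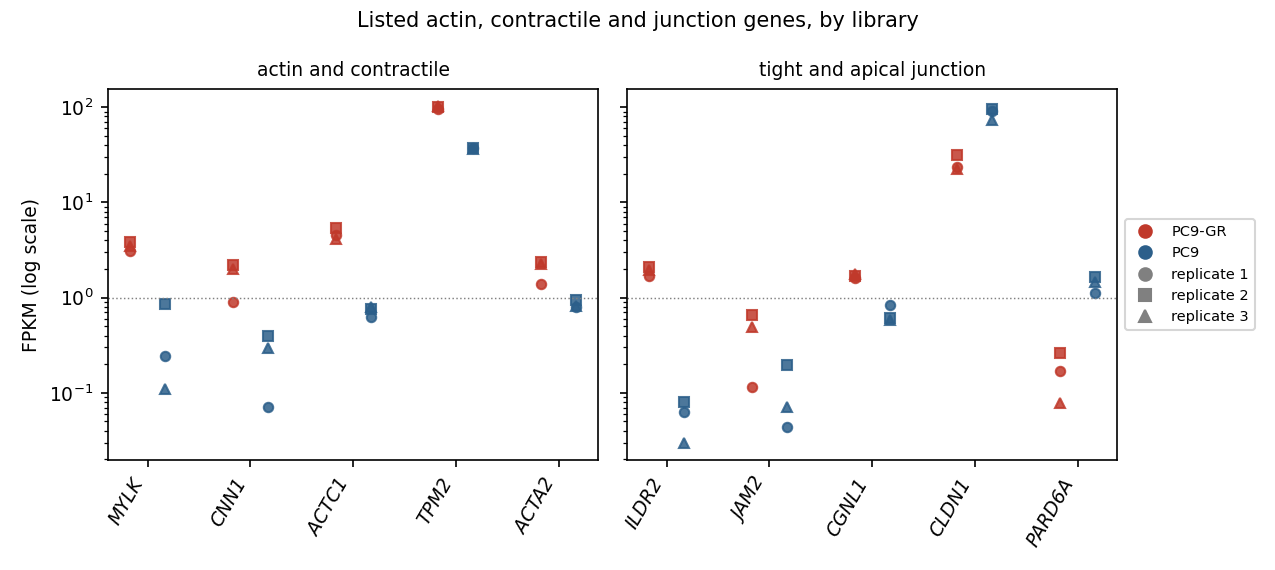
FPKM on a log axis of the 5 listed actin and contractile genes and the 5 listed junction genes, with 1 point per library, PC9-GR left and PC9 right for each gene. The 5 listed contractile genes lie higher in PC9-GR, where 48.3% of the 1705 listed genes lie higher without overlap. CLDN1 and PARD6A lie lower and ILDR2 and CGNL1 higher.

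Of 28 adherens junction, desmosome and epithelial genes, OVOL1 and DSG3 are in the table. OVOL1, an epithelial transcription factor, was at 2.23 ± 0.282 FPKM in PC9-GR and 7.67 ± 0.185 FPKM in PC9 (SD, n = 3 each; log2 difference -1.43, limma adjusted p = 4.41e-06). DSG3, a desmosomal cadherin, did not reach the filter and measured 0.786, 1.20 and 1.05 FPKM in the PC9-GR libraries, against 0.418, 0.368 and 0.420 FPKM in the PC9 libraries. The other 26 genes were not analysed here, so the labelled epithelial cell type could not be checked on its usual markers. KRT6A, CLDN1 and KRT5 were still expressed in PC9-GR at the levels given above, though each was called lower. KRT13 and PARD6A lay below 1 FPKM in each PC9-GR library. These genes do not replace the usual markers.

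The mesenchymal list has 30 genes besides the 3 described here, and the authors' selection holds 13 of them. Each of these 13 was called higher, against 48.4% of the 1207 genes tested. Earlier results of the same libraries had shown the direction of this list. Its other 17 genes were not analysed here, and the selection leaves out genes measured as unchanged. The count therefore does not describe the whole list. COL6A3, MMP9 and SPARC had the largest differences, at 4.47, 3.56 and 3.49 on the log2(FPKM + 1) scale (limma adjusted p = 8.94e-09, 5.07e-08 and 4.48e-08). COL6A3, MMP9, ZEB2 and CDH13 passed the filter only through PC9-GR libraries, so these 4 had to be higher to be tested. The repressors ZEB1, ZEB2 and SNAI1, which bind the E-box, were at 5.49 ± 0.633, 4.07 ± 0.746 and 4.09 ± 0.0911 FPKM in PC9-GR and at 0.907 ± 0.128, 0.321 ± 0.217 and 1.45 ± 0.0822 FPKM in PC9 (SD, n = 3 each). These repressors and CDH13 are named after their values were seen.

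Markers of other cell types were looked for because vimentin and alpha-actin are also made by stromal cells. Of 17 markers of fibroblasts and mural cells, PDGFRB and DES are in the table, the second also on the intermediate filament list, and their summed level was 4.74 to 7.29 FPKM in PC9-GR libraries and 0.145 to 0.414 FPKM in PC9 libraries. PDGFRB measured 3.77, 3.69 and 2.38 FPKM in the PC9-GR libraries, against 0.143, 0.0749 and 0.0661 FPKM in the PC9 libraries. Of 11 endothelial markers 0 are in the table. Of 13 leukocyte markers 5 are, namely CD68, ITGAM, CORO1A, ITGAX and LYZ, with summed levels of 46.2 to 57.0 FPKM in PC9-GR libraries and 20.5 to 24.6 FPKM in PC9 libraries. CD68 made up most of the sum in each line, and ITGAM was at 7.25 ± 2.12 FPKM in PC9-GR and 0.570 ± 0.583 FPKM in PC9 (SD, n = 3 each). ITGAX averaged 2.83 ± 0.187 FPKM in PC9-GR and 0.119 ± 0.0281 FPKM in PC9, and CORO1A averaged 4.22 ± 1.13 FPKM in PC9-GR and 2.17 ± 0.421 FPKM in PC9. LYZ, which did not reach the filter, measured 0.001, 0.184 and 0.241 FPKM in the PC9-GR libraries, against 0.760, 1.61 and 0.891 FPKM in the PC9 libraries. The remaining markers were not analysed here. Both lines are labelled as epithelial cells, and whether other cell types had any part in the VIM and ACTA2 values was not tested.

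By a root mean square distance between centred log2(FPKM + 1) profiles over the 6 libraries, the tested genes most like VIM were MMP9 (0.105), SPARC (0.106) and IL32 (0.161). SPARC was also like VIM in level, at 231.7 ± 16.7 FPKM in PC9-GR and 19.8 ± 3.43 FPKM in PC9 (SD, n = 3 each). IL32, a cytokine, was at 25.6 ± 1.28 FPKM in PC9-GR and 0.931 ± 0.191 FPKM in PC9, and MMP9, a matrix protease, at 13.8 ± 0.873 and 0.261 ± 0.135 FPKM. The likeness of these last genes to VIM holds on this scale, which shrinks the change of low genes. As a ratio of means, MMP9 (53.0) and IL32 (27.5) differed more than VIM (12.3), and SPARC was at 11.7. MMP9 passed the filter only through PC9-GR libraries. Nearest to ACTA2 were AASS (0.0524), ARID5B (0.0714) and CDKN2C (0.0726), an enzyme of lysine breakdown, a chromatin factor and a cyclin-dependent kinase inhibitor. AASS measured 1.48, 2.46 and 2.30 FPKM in the PC9-GR libraries, against 1.01, 1.10 and 1.00 FPKM in the PC9 libraries, and it shared with ACTA2 the low value of PC9-GR replicate 1. The genes most like CLDN1 were ITGB4 (0.0956), VIPAS39 (0.107) and CHST6 (0.122). ITGB4, the integrin of hemidesmosomes, was at 48.9 ± 6.53 FPKM in PC9-GR and 154.8 ± 23.1 FPKM in PC9 (SD, n = 3 each), and as for CLDN1 its highest PC9-GR library was replicate 2 and its lowest PC9 library replicate 3.

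The positions of the genes in the table carry no named build. VIM lies on chromosome 10 from 17256237 to 17279592, ACTA2 on chromosome 10 from 90639490 to 90775542, and CLDN1 on chromosome 3 from 190023489 to 190040264. On GRCh38, GENCODE 29 places VIM at 17228259 to 17237593, ACTA2 at 88935074 to 88991339 and CLDN1 at 190305701 to 190322475. The deposited ACTA2 locus is 136053 bp long while GENCODE 29 gives the gene 56266 bp, and there STAMBPL1, ACTA2-AS1 and FAS overlap it on the opposite strand. Of the 50-base words of ACTA2, 26.0% occur in reverse in other transcripts, most in ACTA2-AS1 and FAS. The kit keeps strand, but the strand setting of the counting is not given in the sources used here, so reads of ACTA2 and of its antisense neighbours may not have been told apart.

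Another listed gene shares the VIM locus. RP11-124N14.3, named AL133415.1 in GENCODE 29, is annotated as antisense inside VIM and measured 23.1, 29.6 and 28.8 FPKM in the PC9-GR libraries, against 2.77, 3.15 and 2.83 FPKM in the PC9 libraries. It was called higher (log2 difference 2.84, limma adjusted p = 1.01e-07). The ratio of VIM to this RNA was 10.7, 9.67 and 9.58 in the PC9-GR libraries and 7.71, 7.36 and 7.47 in the PC9 libraries, so the ratio was somewhat higher in each PC9-GR library. Of the 50-base words of VIM, 20.6% occur in reverse in VIM-AS1 or AL133415.1. The split of reads between VIM and its antisense RNA was not tested.

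By the ratio in the authors' deposited table, 41 of 51 listed genes on chromosome 10 (80.4%) were higher in PC9-GR, and VIM lay in a run of 20 consecutive higher genes from IDI1 to TACR2. NMT2, the nearest listed gene on one side, was at 23.3 ± 1.65 FPKM in PC9-GR and 7.00 ± 0.542 FPKM in PC9, and ST8SIA6 on the other side did not reach the filter and was at 1.13 ± 0.121 and 0.257 ± 0.142 FPKM (SD, n = 3 each). All 5 other listed genes within 5 Mb of VIM were higher by the ratio in the authors' deposited table. RP11-124N14.3, which overlaps VIM and may share its reads, is among these 5. The authors' log2 ratio of VIM in their deposited table was 3.64, against a median of 1.67 over the chromosome. ACTA2, farther along the chromosome, had 3 higher and 2 lower listed genes within 5 Mb. Its nearest listed neighbours were PAPSS2, at 8.97 ± 0.555 FPKM in PC9-GR and 3.89 ± 0.312 FPKM in PC9, and SLC16A12, at 0.416 ± 0.0656 and 0.0909 ± 0.0588 FPKM (SD, n = 3 each).

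CLDN1 did not share its direction with most of the listed genes around it. By the ratio in the authors' deposited table, 57 of 88 genes listed for chromosome 3 (64.8%) were lower in PC9-GR, but 5 of the 7 other listed genes within 5 Mb of CLDN1 were higher. The nearest on either side were RP11-573D15.1, at 5.82 ± 1.20 FPKM in PC9-GR and 1.64 ± 0.368 FPKM in PC9, and HRASLS, at 2.94 ± 0.255 and 0.888 ± 0.151 FPKM (SD, n = 3 each). Both were called higher. The authors' log2 ratio of CLDN1 in their deposited table was -1.73, against a median of -1.10 over the chromosome. GENCODE 29 lists no other gene that overlaps CLDN1.

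**Figure D4:**
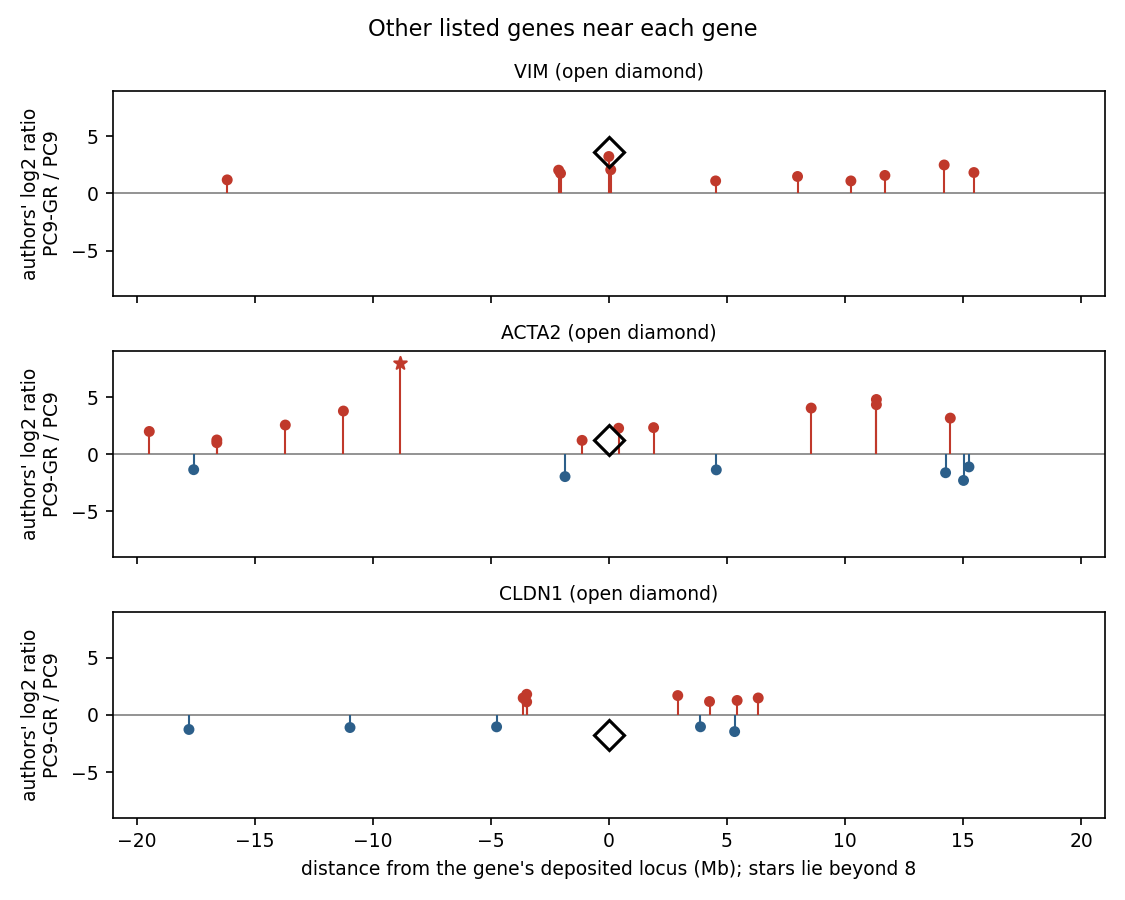
Authors' log2 ratio of PC9-GR to PC9 for listed genes within 20 Mb of VIM, ACTA2 and CLDN1, against the distance in Mb from the deposited locus of each gene, shown as an open diamond. The 5 listed neighbours within 5 Mb are all higher for VIM, with RP11-124N14.3, which overlaps VIM, among them. For ACTA2 3 of 5 are higher, and for CLDN1, itself lower, 5 of 7 are higher. The star stands for a ratio beyond 8.

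Direction and call held for each gene in each limma fit that could be run. The authors had selected these genes for a difference in the same libraries, so this is no independent support. The log2 difference of VIM lay between 3.52 and 4.55 over 16 alternatives, that of ACTA2 between 0.42 and 1.23 over 15, and that of CLDN1 between -1.86 and -0.72 over 16. An exact two-sided permutation over the libraries gave p = 0.1 for each gene, which is as low as 3 against 3 can go, so it could not reach 0.05.

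**Figure D5:**
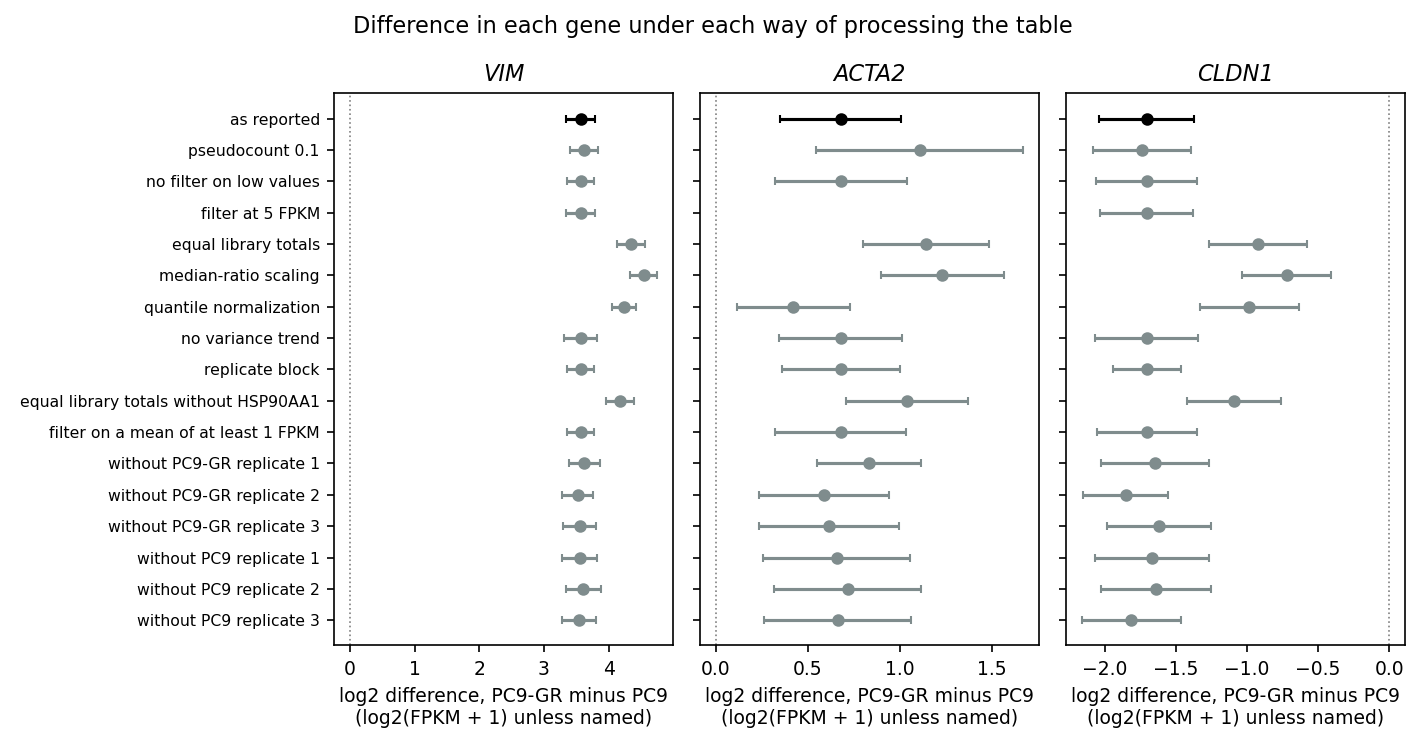
Log2 difference of VIM, ACTA2 and CLDN1 between PC9-GR and PC9 with its 95% interval from limma (n = 3 per line), as reported (black) and under each alternative (grey), each gene on its own axis. No interval crosses 0, CLDN1 moves nearest to it at -0.72 with median-ratio scaling and ACTA2 at 0.42 with quantile normalization; ACTA2 has no value with a filter at 5 FPKM.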

How the data were processed

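The authors used TopHat and Cufflinks, per the submitters' processing notes, on strand-specific Agilent SureSelect libraries. Which build, annotation, tool versions and strand setting were used is not given in the sources used here. Per library and per group, the deposited table gives FPKM, per the file headers. It also gives the authors' deposited ratio of PC9-GR to PC9 and the log2 of that ratio, together with the authors' p-value and q-value. In its header "Control" is PC9 and "T1" is PC9-GR. A further pair of columns headed CV followed no formula that could be matched and was not used.

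FPKM was used as deposited. limma 3.58.1 in R 4.3.3 was fitted to log2(FPKM + 1) for the 1207 genes that reached 1 FPKM in 3 or more libraries. The model held the line as its single term and let the variance follow the mean, and p-values were adjusted by Benjamini-Hochberg over those genes. The step was tested on simulated data. Differences on this scale understate the change of low genes such as ACTA2. Depth is unknown, so no counting interval is given. Replicates were labelled as independent cultures.

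The 3 genes and the gene lists were chosen with earlier results of these data known. Besides the 3 genes, the rule for named genes took the 3 nearest profiles and the neighbours of each, every listed member of a list with 6 or fewer in the table, and otherwise the 3 largest differences per direction among those called. Alternatives changed the pseudocount (0.1), the filter, the scaling, the variance trend and the replicate block, and left out each library. Sequences were read from RefSeq promoter windows on GRCh38.p14 (3 of 3 genes matched) and GENCODE 29 transcripts, with Python 3.11.15.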

Additional observations from a re-analysis of the deposited data

How the results depend on the processing

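VIM, ACTA2 and CLDN1 kept their direction and their call in each limma alternative run, with adjusted p up to 1.14e-06, 0.0139 and 0.000894. All come from a table selected for a difference in these same libraries, so this is no independent support. ACTA2 has no value with a filter at 5 FPKM. By the two-sided exact permutation test, p was 0.1 for VIM (3.57), ACTA2 (0.68) and CLDN1 (-1.71), the smallest that 3 against 3 libraries allow, so it says nothing on stability. Without each library in turn, the log2 difference ranged from 3.52 to 3.62 for VIM, from 0.59 to 0.83 for ACTA2 and from -1.86 to -1.62 for CLDN1. With the replicate block, the differences were 3.57, 0.68 and -1.71 (limma adjusted p = 4.23e-07, 0.00147 and 3.44e-06), 586 genes were called higher and 619 lower, and no call of these genes changed. Same-numbered libraries did not deviate together (correlations of -0.0977, 0.0822 and 0.164 across genes), so the numbers are not taken as pairs, and not every library correlated best with its own number.

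A filter at 5 FPKM left 234 genes called higher and 393 lower, 1 intermediate filament gene higher, 1 contractile gene higher, and 0 junction genes higher and 1 lower. Median-ratio scaling left 316 genes called lower and moved the share of calls that were higher from 48.5% to 65.0%; equal totals gave 57.5%, and 51.2% with HSP90AA1 left out, a setting chosen after the data were seen. These scalings moved the median of all genes by 0.63, 0.47 and 0.37 on the log2 scale, and quantile normalization moved it by 0.35. All were computed from the listed genes alone, from which genes measured as unchanged were left out, so they cannot show which size is right. Without a filter, 1 adherens junction or epithelial gene was called higher (DSG3). With a filter on the mean over the 6 libraries, also chosen after the data were seen, 1 junction gene was called higher and 1 lower. The cause was not tested beyond the smaller number of genes that a filter leaves. Low values such as those of ACTA2 limit what FPKM without counts can show.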
